A study of Marmota monax with 203 samples.

Results

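Intrahepatic expression of 8 genes of the MHC class II antigen presentation pathway was followed in woodchucks chronically infected with woodchuck hepatitis virus (WHV). The genes were taken by symbol from the deposited expression tables, which list 17587 genes under human-style names, and they were HLA-DRA, HLA-DMA, HLA-DMB, HLA-DOA, HLA-DOB, CD74, CIITA and CTSS. All 8 had enough counts to be tested in each of the comparisons below.

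The animals (Marmota monax) were adults infected at 3 days of age with WHV strain WHV7-11, and both groups were chronic carriers when treatment began. One group received recombinant woodchuck interferon-alpha 5 (wIFN-α) subcutaneously 3 times a week for 15 weeks, first 20 μg per dose (low dose, 7 weeks) and then 100 μg per dose (high dose, 8 weeks), and the other received placebo (vehicle) on the same schedule. Liver biopsies were taken before treatment (week −3), on treatment (weeks 0 and 3 at the low dose, weeks 7, 11 and 15 at the high dose, 6 h after a dose) and after treatment (weeks 19 and 23), and poly(A) RNA was sequenced. Weeks are those of the study, and the labels name the same biopsies wk-3, wk1, wk4, wk8, wk12, wk16, wk20 and wk24. From week −3 to week 23 the placebo group comprised 12, 12, 12, 12, 10, 9, 5 and 9 biopsied animals in turn, and the wIFN-α group 11, 11, 9, 9, 8, 8, 6 and 6. One wIFN-α animal, M1004, was left out, as in the study, because it was thought to be clearing the virus on its own. The paper reports that viral markers in serum and liver fell strongly at the high dose in some of the wIFN-α animals. Viral load was therefore not equal between the groups at the later weeks of treatment. Between week 0 and week 15 dose and time on treatment changed together, so their effects cannot be told apart there. The dose was the same at weeks 0 and 3, and the same at weeks 7, 11 and 15. Changes between weeks of equal dose were not tested.

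MHC class II molecules present peptides from the endosomal compartment to CD4 T cells. The α chain HLA-DRA pairs with a β chain and is guided to endosomes by the invariant chain CD74, which cathepsin S (CTSS) cuts down to a short fragment in the groove. HLA-DM, a dimer of HLA-DMA and HLA-DMB, exchanges that fragment for a peptide, and HLA-DO, a dimer of HLA-DOA and HLA-DOB, restrains HLA-DM. CIITA is the coactivator on which transcription of the class II genes depends and is inducible by interferon-gamma. In liver, class II is carried mainly by B cells, dendritic cells, macrophages including Kupffer cells, and sinusoidal endothelium, and little by resting hepatocytes. A liver biopsy mixes these cells, so fewer cells of a type and less RNA per cell cannot be told apart in any value below.

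The biopsies compared, of 12 placebo and 11 wIFN-α animals, held 12072840 to 84805845 counts on genes, with a median of 28754894. Values are given as CPM, a gene's counts scaled to a fixed library total, after scaling of the libraries to each other by TMM. Most biopsies had the RNA of liver, but 3 held over 10% of counts on 18 skeletal muscle genes: F1016 at week −3 (13.9%), F1018 at week −3 (14.2%) and F1021 at week 3 (12.0%), where the median of the other 146 biopsies was 0.0512%. Albumin (ALB), the main secreted protein of hepatocytes, was at 114 CPM in F1016 and 32.1 CPM in F1018 at week −3, against at least 13223 CPM in the other 146 biopsies, so those 2 libraries went against their liver label. For M1008, a placebo animal, the week 15 biopsy had 2 runs that differed from each other by a chi-square of 136.9 per degree of freedom, where the next most different pair of runs of 1 biopsy differed by 31.4.

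In placebo animals the 8 genes spanned a wide range of levels. Per kilobase of transcript, the median over 81 placebo biopsies was 91.4 CPM for HLA-DRA and 75.7 CPM for CD74, followed by 13.0 CPM for CTSS, 1.93 CPM for HLA-DOA, 1.93 CPM for HLA-DMA, 1.28 CPM for HLA-DMB, 1.00 CPM for HLA-DOB and 0.724 CPM for CIITA. HLA-DRA and CD74 did not differ in order beyond their spread, since HLA-DRA was the higher one in 47 of 81 biopsies, and the same held for HLA-DOA and HLA-DMA (41 of 81). CTSS stood below CD74 and above HLA-DOA in 81 of 81 biopsies, and HLA-DMA was above HLA-DMB in 81 of 81. HLA-DMB was above HLA-DOB, and HLA-DOB above CIITA, in 59 of 81 biopsies each. These orders hold per kilobase and rest in part on the transcript lengths, which were derived from the deposited RPKM values. Without division by length the medians were 241 CPM for CD74, 117 CPM for HLA-DRA, 6.99 CPM for CIITA and 6.20 CPM for HLA-DMB. Those of HLA-DMA and HLA-DOB were 5.30 and 1.86 CPM. The spread between placebo biopsies, highest over lowest, was 46.3-fold for HLA-DRA, 31.1-fold for CD74 and 23.7-fold for HLA-DMB, and 6.60-fold for CIITA and 8.49-fold for CTSS. The lowest HLA-DRA, CD74, CTSS, HLA-DOA and CIITA values were those of F1016 at week −3. In the 79 placebo biopsies not rich in muscle RNA the spread was 26.5-fold for HLA-DRA, 15.5-fold for CD74, 6.56-fold for CTSS, 5.97-fold for HLA-DOA (9.70-fold in all 81) and 5.16-fold for CIITA, and it was the same for the other 3 genes. The lowest count of any of the 8 genes in a compared biopsy was 14, for HLA-DOB, so this gene has the largest counting error.

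**Figure D1:**
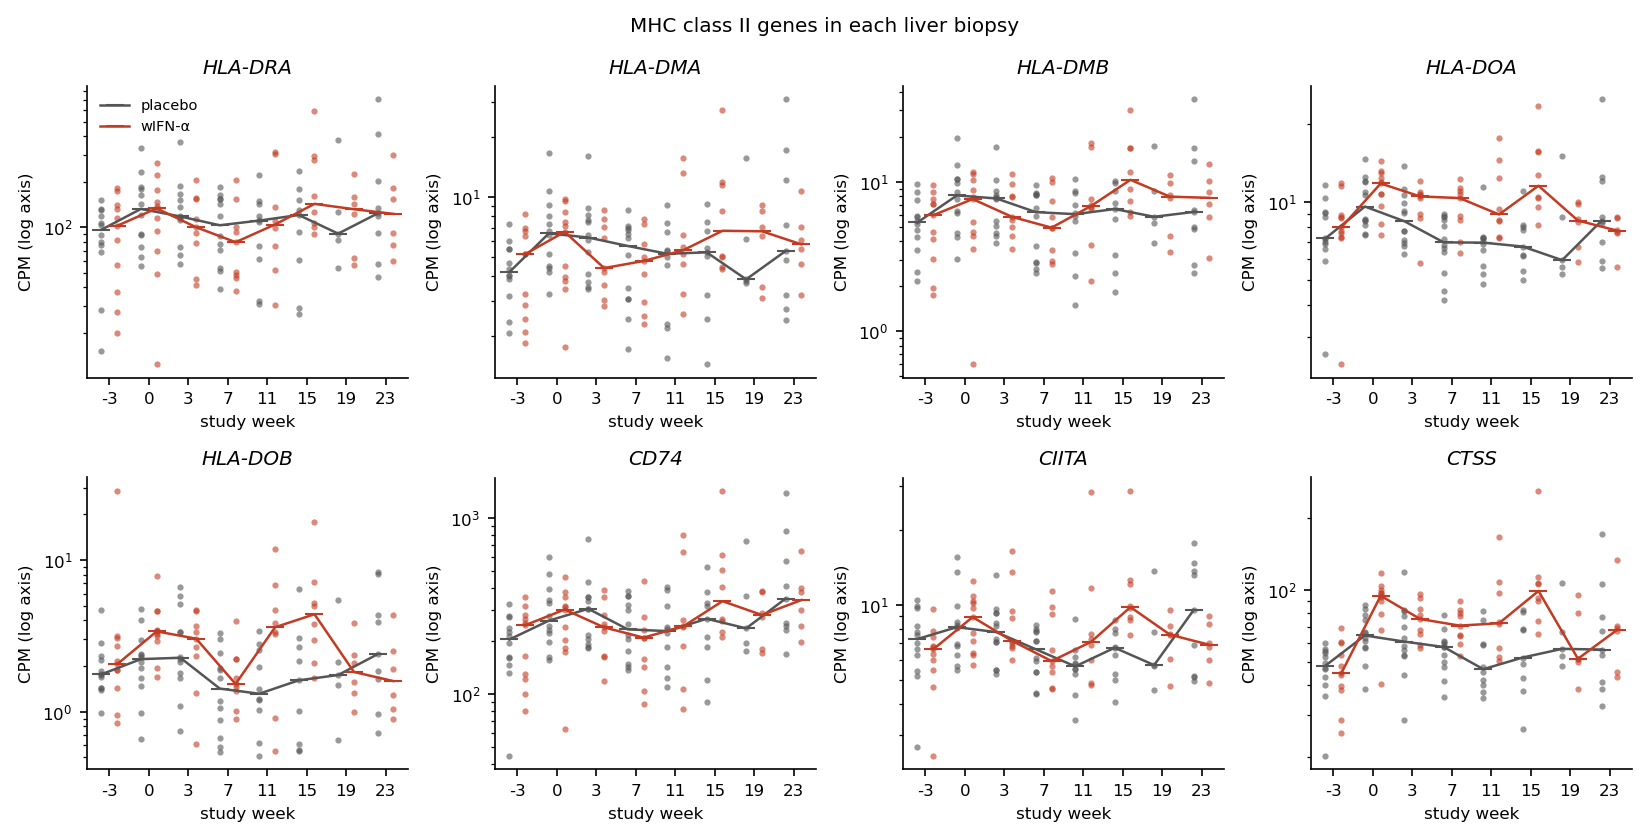
Expression of the 8 class II genes in each biopsy by study week, in CPM on a log axis, with placebo in grey and wIFN-α in red. Points are animals and lines join group medians. The 2 groups overlap at each week for each gene, and the highest wIFN-α point at week 15 is animal F1020 in all 8 panels.

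A gene was called higher or lower between wIFN-α and placebo at a Benjamini-Hochberg adjusted p under 0.05 over all genes tested (edgeR quasi-likelihood test) and a fold change above 1.5. None of the 8 class II genes was called at week −3, 0, 3 or 7, while 0%, 10.3%, 7.24% and 11.4% of all genes tested were called higher at those weeks. At week 11, 3 of 8 were called higher (CTSS, HLA-DOA and HLA-DOB, with 12.6% of all genes), and at week 15, 5 of 8 were called higher (CIITA, CTSS, HLA-DMB, HLA-DOA and HLA-DOB, with 13.4% of all genes). HLA-DRA, HLA-DMA and CD74 were not called at any week. None was called lower at any week, where 8.15%, 3.54%, 10.1%, 7.98% and 8.83% of all genes were called lower at weeks 0, 3, 7, 11 and 15. At unadjusted p under 0.05, 1 of 8 passed at week −3 (HLA-DOB), 2 at week 0 (CTSS and HLA-DOB), 0 at week 3 and 2 at week 7 (CTSS and HLA-DOA), and DESeq2 called 0 at each of these weeks. The median log2 fold change of the 8 genes was −0.10 at week 0, −0.13 at week 3, 0.06 at week 7, 0.57 at week 11 and 0.94 at week 15, while that of all genes tested lay between −0.04 and −0.01 at those weeks. After treatment none was called (0% of all genes at week 19 and 0% at week 23), with medians of −0.13 and −0.49. At unadjusted p under 0.05, 1859 and 2416 genes passed at weeks 19 and 23 and none of the 8 was among them, and DESeq2 called 0 of the 8 there.

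The regulator CIITA was at 4.07 to 8.71 CPM (median 6.73) in placebo animals and at 7.54 to 28.8 CPM (median 9.80) in wIFN-α animals at week 15. Of 8 wIFN-α animals, 6 stood above all 9 placebo animals. The log2 fold change was 0.92 ± 0.24 (SE, adjusted p = 0.00457). At week 0, CIITA lay at 5.46 to 15.6 CPM (median 8.14) in placebo animals and 5.72 to 12.5 CPM (median 8.94) in wIFN-α animals, and the log2 fold change was −0.01 ± 0.17. Week 3 gave 0.16 ± 0.19, week 7 gave 0.10 ± 0.17 and week 11 gave 0.75 ± 0.30 (adjusted p = 0.0552). The call at week 11 depended on the fit: CIITA was called in 9 of 29 alternative fits, with adjusted p from 0.00643 to 0.256. At week 15 it was called in 27 of 28, the exception being the fold change threshold of 2.

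HLA-DRA and CD74, the α chain and the invariant chain, were the most abundant of the 8 and were not called at any week in the fits reported here. Among alternative fits, CD74 was called in 1 of 28 at week 15, the one without M1008. At week 15, HLA-DRA was at 26.6 to 238 CPM (median 121) in placebo animals and at 89.8 to 592 CPM (median 143) in wIFN-α animals. The groups overlapped widely, with 3 of 8 wIFN-α animals above all placebo animals, and the log2 fold change was 0.95 ± 0.46 (adjusted p = 0.105). CD74 was at 89.3 to 528 CPM (median 267) in placebo animals and at 210 to 1425 CPM (median 336) in wIFN-α animals, a log2 fold change of 0.87 ± 0.40 (adjusted p = 0.0914). At week 3 both genes had negative log2 fold changes, −0.37 ± 0.31 for HLA-DRA and −0.42 ± 0.25 for CD74, which were not called (adjusted p = 0.428 and 0.249). CD74 over HLA-DRA per kilobase had a median of 0.893 in placebo and 0.894 in wIFN-α animals at week 15, with ranges of 0.649 to 1.81 and 0.651 to 1.30. For HLA-DRA no alternative fit at week 15 gave a call, with adjusted p from 0.0523 to 0.318.

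The 2 chains of the peptide exchanger HLA-DM varied together between biopsies, and 1 of them, HLA-DMB, was called at week 15. HLA-DMB at week 15 was at 1.83 to 10.2 CPM (median 6.57) in placebo animals and at 5.86 to 30.1 CPM (median 10.3) in wIFN-α animals, of which 4 of 8 were above all placebo animals. Its log2 fold change was 1.09 ± 0.38 (adjusted p = 0.0281). HLA-DMA was at 1.43 to 9.17 CPM (median 5.25) and 4.35 to 27.3 CPM (median 6.75), with 3 of 8 wIFN-α animals above all placebo animals and a log2 fold change of 0.93 ± 0.40 (adjusted p = 0.0715). At week 0 the same contrasts were −0.35 ± 0.34 for HLA-DMB and −0.28 ± 0.28 for HLA-DMA, and at week 11 they were 0.53 ± 0.39 and 0.51 ± 0.37, none called. HLA-DMB over HLA-DMA per kilobase had a median of 0.726 in placebo and 0.799 in wIFN-α animals at week 15.

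HLA-DOA, the α chain of the HLA-DM inhibitor, had the smallest adjusted p of the 8 at week 15. It was at 5.01 to 11.03 CPM (median 6.73) in placebo animals and at 8.19 to 23.5 CPM (median 11.6) in wIFN-α animals. Of 8 wIFN-α animals 4 stood above all placebo animals, and the log2 fold change was 0.89 ± 0.20 (adjusted p = 0.00153). At week 11 it was at 4.84 to 11.4 CPM (median 6.97) in placebo animals and 7.28 to 17.6 CPM (median 8.95) in wIFN-α animals, a log2 fold change of 0.61 ± 0.19 (adjusted p = 0.0155). This value lay just above the fold threshold, and 21 of 29 alternative fits gave the call. At week 7, after the first high dose, HLA-DOA was at 4.18 to 8.99 CPM (median 6.98) in placebo animals and 6.35 to 12.3 CPM (median 10.4) in wIFN-α animals, with 5 of 9 above all placebo animals. Its log2 fold change of 0.44 ± 0.15 at week 7 had an adjusted p of 0.0160 but did not reach 1.5-fold, so it was not called.

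HLA-DOB, the partner chain, had the largest fold changes of the 8 at weeks 11 and 15, with the largest errors. At week 15 it was at 0.550 to 6.40 CPM (median 1.61) in placebo animals and at 1.67 to 17.8 CPM (median 4.39) in wIFN-α animals. Only 2 of 8 wIFN-α animals stood above all placebo animals, because placebo animal M1011 was at 6.40 CPM. The log2 fold change was 1.49 ± 0.54 (adjusted p = 0.0327). At week 11 the values were 0.512 to 3.42 CPM (median 1.31) and 0.551 to 11.9 CPM (median 3.60), a log2 fold change of 1.38 ± 0.48 (adjusted p = 0.0288). At week −3, before any dose, HLA-DOB already had a log2 fold change of 1.13 ± 0.50 (adjusted p = 1.00), and this was 0.19 without the 2 biopsies of that week rich in muscle RNA, one of which (F1018) held 28.6 CPM. With the animal as a block and the week −3 effect subtracted, HLA-DOB was not called at week 15 (log2 fold change 0.91, adjusted p = 0.242, the highest of its 28 alternative fits, whose lowest was 0.00660). It was called in 20 of those 28 fits, and leaving out any of M1002, F1020, M1005, F1016, F1017, F1019 and F1021 ended the call, with adjusted p up to 0.118. The ratio of HLA-DM to HLA-DO per kilobase, both chains summed, had medians of 1.11 and 0.892 in placebo and wIFN-α animals at week 0, 1.11 and 0.768 at week 3, 1.16 and 0.921 at week 7, 1.19 and 0.888 at week 11, 1.07 and 0.928 at week 15, and 1.29 and 1.21 at week 19. The wIFN-α median was below the placebo median at each of these weeks, as it already was at week −3 before any dose (0.894 and 0.862), and above it at week 23 (1.17 and 1.42), and the ranges overlapped, for example 0.582 to 1.65 in placebo and 0.719 to 1.14 in wIFN-α animals at week 15. These ratios were not tested.

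CTSS, the protease that trims the invariant chain, was the one gene of the 8 with an adjusted p under 0.05 at the first dose. At week 0 it was at 38.6 to 86.4 CPM (median 64.6) in placebo animals and at 40.3 to 117 CPM (median 94.7) in wIFN-α animals, and 8 of 11 wIFN-α animals stood above all 12 placebo animals. The log2 fold change was 0.43 ± 0.15 (adjusted p = 0.0262), below the fold threshold. At week 3 it was 0.16 ± 0.18 (adjusted p = 0.536) and at week 7 it was 0.34 ± 0.12 (adjusted p = 0.0217), again below the threshold. At week 11, CTSS was at 35.2 to 82.0 CPM (median 46.6) in placebo and at 50.3 to 166 CPM (median 72.6) in wIFN-α animals, a log2 fold change of 0.68 ± 0.23 (adjusted p = 0.0245). At week 15 it was at 26.2 to 82.1 CPM (median 52.2) in placebo and at 65.6 to 261 CPM (median 99.2) in wIFN-α animals, 6 of 8 of them above all placebo animals, a log2 fold change of 1.02 ± 0.27 (adjusted p = 0.00528). CTSS was called at week 15 in 28 of 28 alternative fits.

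After the last dose no difference passed the test. At week 19 the 5 placebo animals had HLA-DRA at 53.7, 83.1, 90.9, 126 and 380 CPM, the last being M1008, and the 6 wIFN-α animals were at 56.2 to 225 CPM (median 132). CIITA in the same placebo animals was at 4.57, 5.67, 5.73, 7.76 and 13.7 CPM, and in wIFN-α animals at 4.72 to 9.57 CPM (median 7.60). Log2 fold changes of the 8 genes at week 19 lay between −0.29 ± 0.38 (CD74) and 0.01 ± 0.27 (HLA-DOA). Their signs depended on single animals. Over 11 fits that each left out 1 animal, all 8 genes took both signs, for example −0.44 to 0.53 for HLA-DRA and −0.45 to 0.20 for CD74. None was called in these fits, and no such fits were run for week 23. At week 23 they lay between −0.84 ± 0.54 (HLA-DOB) and 0.01 ± 0.35 (CTSS), and no wIFN-α animal stood above all placebo animals for any of the 8 genes at either week. With 5 and 6 animals at week 19, and 9 and 6 at week 23, errors of this size do not show that the groups were alike.

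The same contrasts are given side by side for the MHC class I pathway, which presents peptides from inside the cell, over 11 of its genes. Of these 11, 10 were called higher at week 0, 9 at week 3, and 11 at weeks 7, 11 and 15, where the counts for the 8 class II genes were 0, 0, 0, 3 and 5. The shares of all genes called higher at weeks 0, 3, 7, 11 and 15 were 10.3%, 7.24%, 11.4%, 12.6% and 13.4%. The log2 fold changes at week 0 included 2.20 for the peptide transporter gene TAP1, 1.94 for the class I coactivator NLRC5 and 1.79 for the immunoproteasome gene PSMB9. At week 15 these were 3.13, 2.69 and 2.87. The difference between the 2 lists was not tested.

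**Figure D2:**
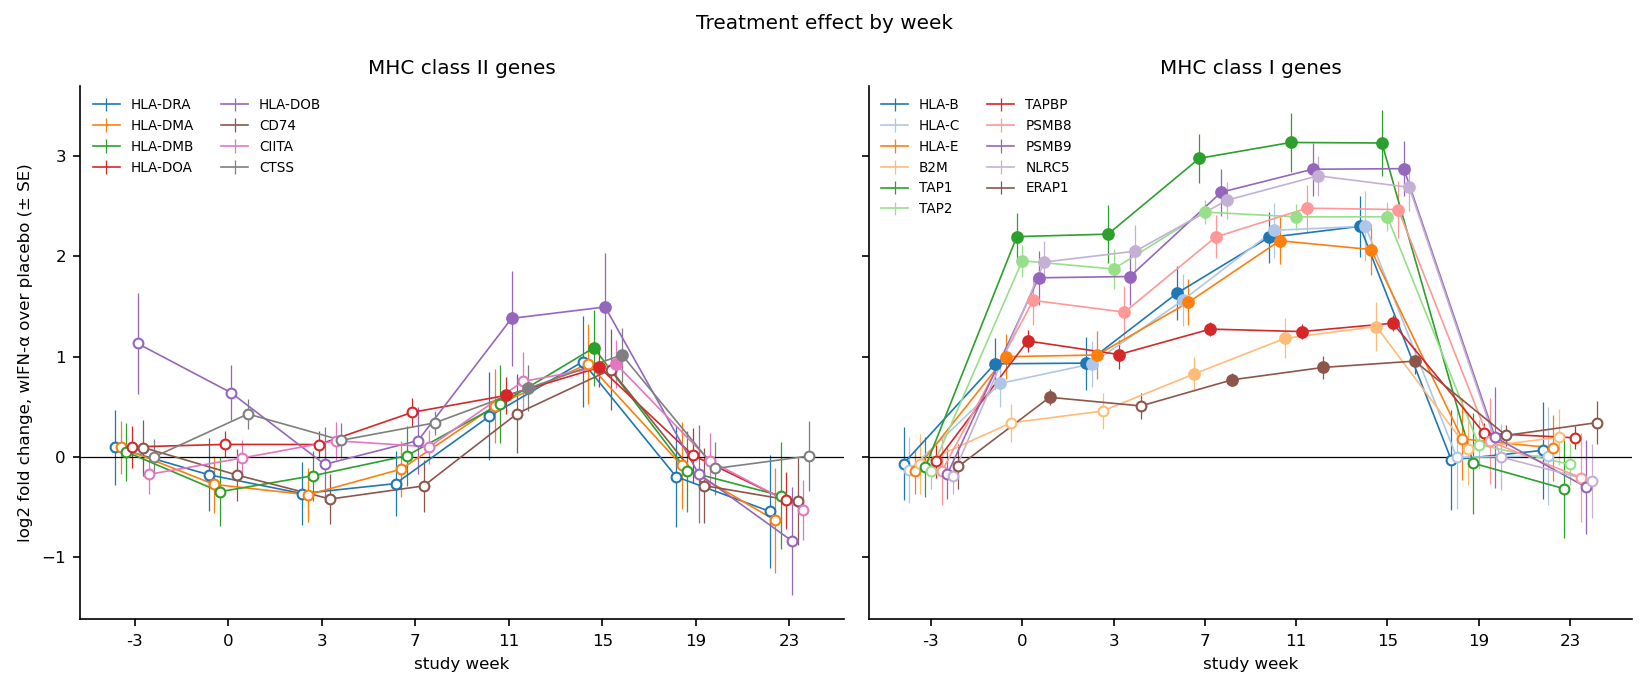
Log2 fold change of wIFN-α over placebo with its SE by study week, for the 8 class II genes (left) and 11 class I genes (right). Filled points passed the test and open points did not. Class I genes lie above 0 from week 0 to week 15, the class II genes lie between −0.42 and 0.64 from week 0 to week 7 and between 0.87 and 1.49 at week 15, and the class I genes lie between −0.32 and 0.34 at week 23.

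Whether the treatment effect itself changed from the first low dose to the last high dose was tested in 1 fit of weeks 0 and 15. In wIFN-α animals log2 changes from week 0 to week 15 were between 0.23 ± 0.16 (HLA-DOA) and 0.89 ± 0.38 (HLA-DMB), and none of the 8 was called (7.45% of all genes were called higher and 7.82% lower), while DESeq2 called 2 (HLA-DMB and CD74) and 3 passed an unadjusted p under 0.05 (HLA-DMB, CD74 and CIITA). In placebo animals the values of all 8 were negative, from −0.50 ± 0.16 (HLA-DOA) to −0.18 ± 0.33 (CD74), and none was called by edgeR or DESeq2 (5.95% of all genes were called higher and 5.85% lower), although HLA-DOA had an adjusted p of 0.0163 below the fold threshold. The change in effect was positive for all 8 genes, from 0.55 ± 0.29 (CTSS) to 1.39 ± 0.53 (HLA-DMB), and none was called (2.13% of all genes were called higher and 0.705% lower, by adjusted p alone). At unadjusted p under 0.05, 5 of 8 passed: HLA-DMA, HLA-DMB, HLA-DOA, CD74 and CIITA. DESeq2 called 1 (HLA-DOA). With the animal as a block, which uses the 17 animals with both biopsies, 2 of the 8 were called: CIITA (change in effect 0.87 ± 0.21, adjusted p = 0.0229, and 0.0229 to 0.162 over 24 alternative fits) and HLA-DOA (0.77 ± 0.19, adjusted p = 0.0277, and 0.0247 to 0.175). In that fit HLA-DMB was called higher at week 15 than at week 0 in wIFN-α animals (0.82 ± 0.30, adjusted p = 0.0439, and 0.0301 to 0.217 over 26 alternative fits). Without the block the change in effect of CIITA and HLA-DOA had adjusted p of 0.0864 and 0.0710.

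Within animals, HLA-DOA was lower at week 15 than at week 0 in 9 of 9 placebo animals and higher in 5 of 8 wIFN-α animals. HLA-DMA was higher at week 15 in 1 of 9 placebo and 6 of 8 wIFN-α animals, HLA-DMB in 2 of 9 and 6 of 8, CIITA in 1 of 9 and 6 of 8, HLA-DRA and CD74 each in 3 of 9 and 6 of 8, HLA-DOB in 1 of 9 and 5 of 8, and CTSS in 3 of 9 and 4 of 8. The wIFN-α animals did not move alike. F1020 had the largest log2 change of the 8 wIFN-α animals for all 8 genes, from 1.13 (HLA-DOA) to 2.40 (HLA-DOB). M1012 had the lowest for 6 of them, for example −1.33 for HLA-DRA, where its level was 268 CPM at week 0 and 106 CPM at week 15.

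**Figure D3:**
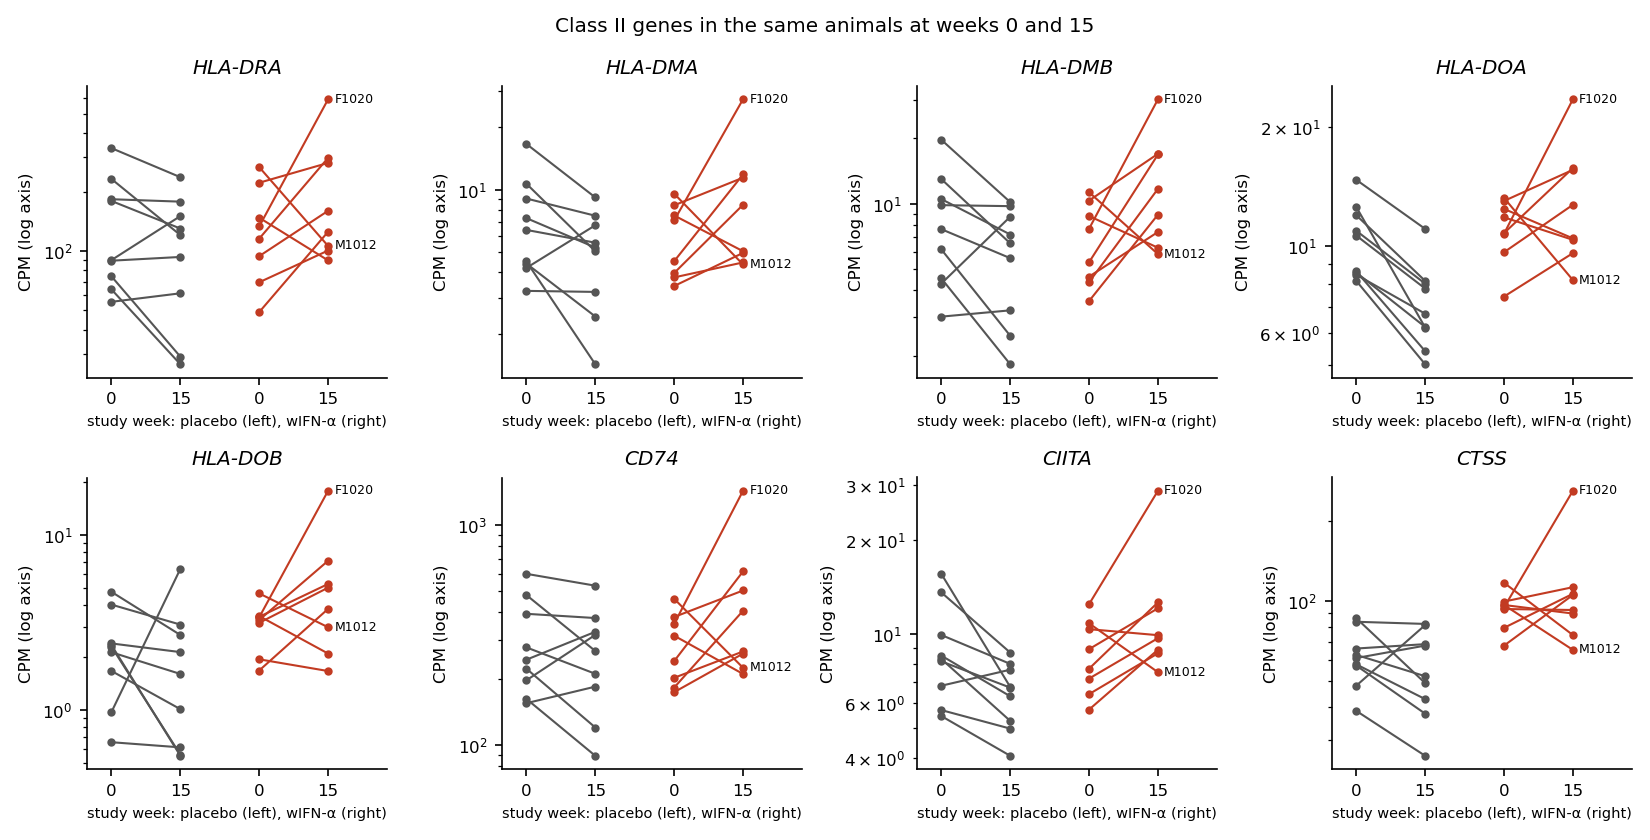
Expression of the 8 class II genes at weeks 0 and 15 in the animals biopsied at both weeks (9 placebo in grey, 8 wIFN-α in red), in CPM on a log axis, 1 line per animal. HLA-DOA is lower at week 15 in 9 of 9 placebo animals, F1020 has the largest increase of the wIFN-α animals in each panel, and M1012 goes from 268 to 106 CPM in HLA-DRA.

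How far the result rests on single animals was examined by leaving out each in turn. F1020 was the highest of the wIFN-α animals at week 15 for each of the 8 genes (HLA-DRA at 592 CPM, next 298 CPM). The paper reports that F1020 died after that biopsy, of unknown cause. Its biopsy labelled as taken at death entered no comparison and lay below its week 15 level for all 8 genes. There HLA-DRA was at 141 CPM, CD74 at 508 CPM and CIITA at 8.05 CPM. Without F1020, CIITA (log2 fold change 0.62), CTSS (0.72) and HLA-DOA (0.73) were still called at week 15, HLA-DMB (0.79) and HLA-DOB (0.98) were not, and the values of HLA-DRA, CD74 and HLA-DMA were 0.55, 0.41 and 0.51. Without M1002 of the wIFN-α group, or without placebo animal M1005, the same 3 genes were called. Without placebo animal M1008, which had the highest placebo value at week 15 for 7 of the 8 genes and whose 2 runs disagreed, 7 were called and only HLA-DRA was not. At week 11 the number of class II genes called was 0 without F1020 and 1 (CTSS) without M1002. Over the 18 fits of week 11 that each left out 1 animal, CTSS was called in 17, HLA-DOB in 16 and HLA-DOA in 12. The call of HLA-DOA thus depended on further animals as well. Without M1003, HLA-DMB was not called at week 15, and with the sequencing lane in 1 fit of all weeks it was not called either (adjusted p = 0.0807, with 0.0133 to 0.0828 over its 28 alternative fits).

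Leaving treatment and week aside, the 8 genes varied together between biopsies. Deviations of log2(CPM + 1) from the group and week mean had a median Pearson r of 0.789 over the pairs of genes, across all biopsies compared (81 of placebo and 68 of wIFN-α animals), in which 23 animals recur and all genes are read from the same libraries. The highest r was 0.963, between the HLA-DM chains HLA-DMA and HLA-DMB, and HLA-DRA and CD74 had r of 0.929. HLA-DOB had the lowest values, from 0.289 (with HLA-DOA, the chain it pairs with) to 0.583 (with HLA-DMA). Without the 3 biopsies rich in muscle RNA these 2 values were 0.573 and 0.711, and the first was still the lowest of all pairs. CIITA had r of 0.819 with CD74 and 0.706 with HLA-DRA. The median was 0.825 in placebo biopsies alone and 0.790 without those 3 biopsies.

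**Figure D4:**
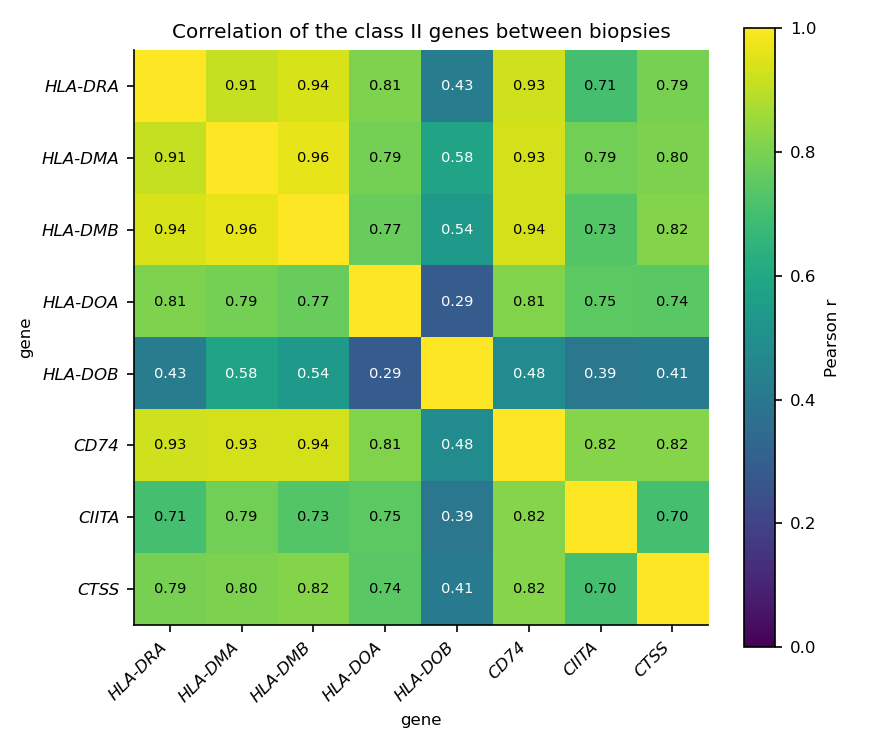
Pearson r between the 8 class II genes, from deviations of log2(CPM + 1) from the group and week mean in the biopsies of 23 animals. The pairs without HLA-DOB lie between 0.70 and 0.96, and the row of HLA-DOB lies between 0.29 and 0.58.

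The 10 genes whose deviations were most like the mean of the 8, among 13908 genes averaging 1 CPM or more, were HLA-DRB1 (r of 0.967), HLA-DPB1 (0.964), HLA-DRB4 (0.964), HLA-DRB5 (0.961), HCLS1 (0.943), HLA-DRB3 (0.940), INPP5D (0.940), MPEG1 (0.938), NCKAP1L (0.937) and DOCK2 (0.934). Of these, 5 are class II β chains, whose near-identical copies can share reads in the authors' counting, and HCLS1, INPP5D, MPEG1, NCKAP1L and DOCK2 are genes of blood cells. PTPRC, the pan-leukocyte marker CD45, had r between 0.748 (CIITA) and 0.884 (HLA-DMB) with 7 of the 8 and 0.476 with HLA-DOB. PTPRC and these 5 genes, chosen after their values were seen, were tested beside the class II genes. PTPRC had log2 fold changes of 0.37 ± 0.21 at week 0, 0.58 ± 0.18 at week 3 (adjusted p = 0.0280, below the fold threshold), 0.54 ± 0.17 at week 7 (adjusted p = 0.0116, also below it) and, called higher, 1.11 ± 0.24 at week 11 and 1.27 ± 0.28 at week 15. HCLS1 (1.499), NCKAP1L (1.21) and INPP5D (1.12) were also called higher at week 15, and MPEG1 (0.98) and DOCK2 (0.68) were not. PTPRC was at 8.88 to 32.6 CPM in placebo and 26.4 to 98.5 CPM in wIFN-α animals at week 15, and its part in the class II result was not tested.

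Other genes of the class II pathway were tested in the same fits. Of 10 further class II chains, 6 could be tested, and HLA-DRB3 was called higher at week 15 (log2 fold change 1.06 ± 0.37, adjusted p = 0.0297). The values of the other 5 lay between 0.82 (HLA-DPB1) and 1.14 (HLA-DPA1) and were not called. In the promoter complex that recruits CIITA, 1 of 7 was called: RFX5, whose product binds the X box of class II promoters, was at 41.7 to 52.2 CPM in placebo animals and 87.3 to 106 CPM in wIFN-α animals at week 15, with no overlap (13.4% of all genes were called higher at that week). The log2 fold change of RFX5 was 1.00 ± 0.06 at week 15 and 0.91 ± 0.09 at week 0. Both tested ubiquitin ligases that remove class II from the cell surface were called at week 15, MARCH8 at 0.98 ± 0.12, with 8 of 8 wIFN-α animals above all placebo animals, and MARCH1 at 0.96 ± 0.31. MARCH8 was called at week 0 too (0.88 ± 0.14), where MARCH1 was at −0.04 ± 0.22. Of 11 genes of endosomal processing, 0 were called at week 15 in either direction by edgeR, although 4 had an adjusted p under 0.05, with values between 0.21 (IFI30, which reduces disulfide bonds in endosomes) and 0.44 (LGMN, an asparagine endopeptidase).

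**Figure D5:**
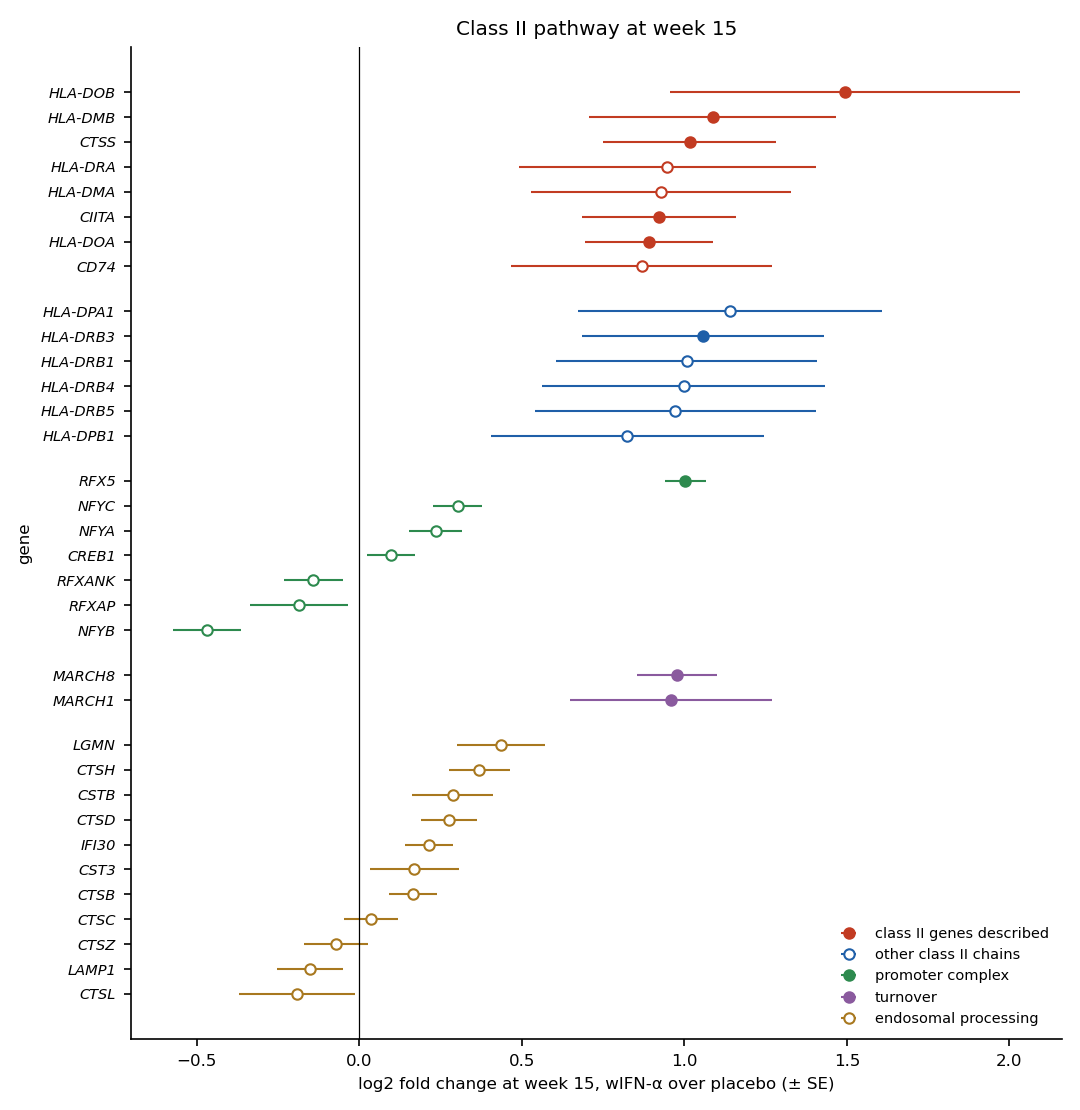
Log2 fold change of wIFN-α over placebo at week 15 with its SE for the 8 class II genes and the tested genes of 4 further lists of the pathway. Filled points passed the test. The 8 genes and the other class II chains lie between 0.82 and 1.49 with long error bars, RFX5 and MARCH8 lie near 1 with short ones, and the 11 endosomal processing genes lie between −0.19 and 0.44.

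Of 6 tested genes of interferon-gamma signalling, 3 were called higher and 1 lower at week 15: IRF1 (2.13 ± 0.24), JAK2 (1.63 ± 0.14) and the feedback inhibitor SOCS1 (1.46 ± 0.12) higher, and the receptor chain IFNGR1 (−0.60 ± 0.10) lower. At that week 13.4% of all genes were called higher and 8.83% lower. The same 3 genes were called higher at week 0, IRF1 at 1.61, JAK2 at 1.31 and SOCS1 at 1.46, when none of the 8 class II genes was called. The share of all genes called higher at week 0 was 10.3%. IRF1 also responds to type I interferon. IFNG itself was too low to be tested at week 15 alone, with a median of 0.112 CPM in placebo biopsies. The fit of weeks 0 and 15 tested all 7 genes, IFNG among them. Over time 1 was called higher and 1 lower in wIFN-α animals (log2 −0.72 to 2.37), and 1 lower in placebo animals (−1.55 to 0.33). The change in effect was called higher for 1 (−0.21 to 3.92). Shares of all genes were 7.45%, 7.82%, 5.85% and 2.13% in turn. Between biopsies IFNG had r of 0.496 (HLA-DOB) to 0.699 (CIITA) with the 8. CXCL9, a chemokine gene induced by interferon-gamma that was added after values were seen, had log2 fold changes of 0.77 ± 0.47 at week 0 (adjusted p = 0.217), 2.07 ± 0.64 at week 7, 3.46 ± 0.71 at week 11 and 3.37 ± 0.78 at week 15, the last 3 called. On the side of the CD4 T cell and its partner, 5 of 6 tested genes were called higher at week 15: the costimulatory genes CD86 (2.33), CD80 (2.04) and CD40 (1.98), and the T cell genes ICOS (2.15) and LAG3 (1.94), the last a class II ligand. CD4 had a log2 fold change of 0.08 ± 0.37. Of the 6 genes of this list tested at week 0, 4 were already called higher (10.3% of all genes). At week 3, 3 of 6 were called higher (7.24%), and at week 7, 4 of 6 (11.4%), with 1 lower (10.1%). None of the 8 class II genes was called at weeks 0, 3 and 7. CD80 and ICOS were low in placebo biopsies, with medians of 0.283 and 0.592 CPM.

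Markers of cell types that can carry class II were called at week 15 as well, when 13.4% of all genes were called higher and 8.83% lower. Of 8 tested B cell markers, 4 were called higher, among them MS4A1 (1.58) and CD22 (1.56), and the summed level of the list was 11.7 to 20.4 CPM in placebo and 16.0 to 54.1 CPM in wIFN-α animals. Of 10 dendritic cell markers, 3 were called higher (CD1C 1.99, BATF3 1.81 and LAMP3 1.17), with sums of 27.98 to 71.5 CPM and 46.0 to 130 CPM. CLEC9A was too low to be tested there. Of 12 macrophage and Kupffer cell markers, 4 were called higher (C1QC 1.01, C1QA 0.94, C1QB 0.90 and TIMD4 0.69) and CD163 lower (−1.94), with sums of 386 to 679 CPM and 551 to 1285 CPM. T cell markers, of which 8 of 9 were called higher (CD2 1.87, CD6 1.61 and CD5 1.61), had sums of 43.2 to 68.0 CPM and 104 to 231 CPM that did not overlap. Sinusoidal endothelial markers had 1 called higher (LYVE1 0.98) and 1 lower (KDR −1.41) of 7, and hepatocyte markers 1 higher (FGB 0.85) of 10. At week 0, 1 of 8 B cell, 2 of 9 dendritic cell, 1 of 12 macrophage and 1 of 9 T cell markers were called higher and ITGAM and CD27 lower, and of 7 sinusoidal endothelial markers LYVE1 was called higher and STAB1 and KDR lower. The shares over all genes at week 0 were 10.3% higher and 8.15% lower. The part of these cell types in the class II values was not tested.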

How the data were processed

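Liver biopsies were sequenced by the authors as paired-end 50-nt poly(A) libraries with a kit that does not mark strand, aligned with Bowtie2 to their own woodchuck transcriptome assembly and counted with SAMtools. The submitters' processing notes also name CASAVA, FastQC and DESeq. The deposited tables hold expected counts per gene, of which 118 of 3368022 nonzero entries were fractions and were rounded, beside RPKM values deposited by the authors, which served here only to derive transcript lengths. Near-identical HLA-DR, DP and DQ copies may share reads, so values of single class II chains are uncertain in that respect.

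The counts of 203 runs were summed into 164 biopsies. Those not compared were 7 of M1004 and 8 taken at other times. Interferon-alpha and placebo were compared at each week with edgeR 4.0.16 in R 4.3.3 (TMM, filterByExpr, quasi-likelihood test, Benjamini-Hochberg adjustment over all genes), and weeks 0 and 15 in 1 fit of 4 groups. DESeq2 1.42.0 was an alternative, as were other normalization, filters, runs, covariates, fold thresholds, the animal as a block and each animal left out. On data simulated for week 15, edgeR recovered 193 of 200 changed genes with 4 false calls among 14943 genes. For the change in effect from week 0 to week 15 it recovered 168 of 200 with 9 false calls among 15468 genes. The simulated data held no single outlying animals, so these figures do not give the power for the 8 genes. Same-numbered biopsies of weeks 0 and 15 come from the same animal, and the deviations of 17 such pairs had a median r of 0.329, with 11 over 0.1. Figures and descriptions used Python 3.11.15. The genes named were the 8 members, the genes most like them and the fixed lists, all chosen with earlier results of these data known. Depth limits the precision of HLA-DOB most, with 14 counts at the lowest. Replicates are separate animals. Some genes of the comparison lists are not reported here.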

Additional observations from a re-analysis of the deposited data

Results flagged for a closer look

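In 17 of 80 groups of 4 to 10 animals, 1 animal lay far from the others by Dixon's criterion. For normally distributed values chance meets this criterion in about 1 in 20 groups. It was applied here to CPM and not to log values, so that rate may not hold. The 8 genes share animals, so these are not 17 separate events. In wIFN-α animals at week 15, F1020 was far above the rest for HLA-DRA (592.5 CPM), CD74 (1425 CPM), HLA-DMA (27.3 CPM), HLA-DMB (30.1 CPM), HLA-DOB (17.8 CPM), CIITA (28.8 CPM) and CTSS (260.8 CPM), and it was already so for CIITA at week 11 (28.4 CPM).

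Placebo animal M1008 was far above the other placebo animals for HLA-DOA at week 11 (11.4 CPM), for HLA-DRA (379.7 CPM) and HLA-DMA (15.8 CPM) at week 19, and for HLA-DMB (35.6 CPM) and HLA-DOA (24.99 CPM) at week 23. HLA-DOB was far above the rest in M1002 of the wIFN-α group at week 7 (3.97 CPM) and in placebo animal M1011 at week 15 (6.40 CPM). At week 23, F1014 was far below the other wIFN-α animals for HLA-DOA (5.63 CPM) and F1013 far above them for CTSS (133.5 CPM).

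A biopsy of wIFN-α animal F1023 labelled as taken at death entered no comparison, and its HLA-DOA level of 53.4 CPM was above the highest placebo value of 24.99 CPM.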

How the results depend on the processing

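Of 1696 single-gene values under alternatives, 28 lost a call and 38 gained one. The sign changed in 50, none of them called, with values from −0.37 to 0.53. Of these, 2 had a reported value above its own error: HLA-DOB at week 0 was −0.0034 with the animal as a block and the week −3 effect subtracted, and CD74 at week 23 was 0.0164 with the sequencing lane. Without a fold threshold, 1 gene was called higher at week 0, 2 at week 7 and 1 lower over time in placebo animals. At a fold change above 2, 1 was called at week 11 and 3 at week 15. Leaving out 1 animal at a time gave 0 to 4 genes at week 11, 3 to 7 at week 15, 0 to 3 for the change over time in wIFN-α animals and 0 to 2 for the change in effect. Over time in wIFN-α animals, DESeq2 called 2, sex as a covariate 2 and the animal block 1. For the change in effect, DESeq2 called 1 and the animal block 2, where the pairing is by animal. Leaving out F1023 at week 0, chosen after seeing the data because it had the lowest HLA-DRA level of its group, changed no call. The spreads without the muscle-rich placebo biopsies were also added after seeing the data. The causes of these changes were not tested. The pseudocount alternative was not run because no gene of the 8 failed the filter. Counting error is largest for HLA-DOB, and the 5 placebo animals of week 19 are the smallest group.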
